A study of Mus musculus with 18 samples.

Results

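The genes described here are the splicing factor and hnRNP genes of mouse splenic B cells, chosen by symbol alone: SR proteins (Srsf), heterogeneous nuclear ribonucleoproteins (Hnrnp), small nuclear ribonucleoprotein (snRNP) proteins (Snrp) and subunits of the SF3A and SF3B complexes (Sf3a, Sf3b). The rule found 49 of the 23420 genes in the files, namely 18 hnRNP genes, 11 SR genes, 8 Sm core genes, 4 genes of U1 and U2 snRNP proteins and 8 SF3 genes. All B cells came from MRL/lpr mice, a lupus-prone strain that carries the Fas lpr mutation, aged 5 to 7 weeks, and were purified with beads and cultured for 4 h. In the first set of libraries, from female mice that all lacked Tlr7, Tlr9het B cells were compared with Tlr997 B cells, in which the TIR signalling domain of TLR9 is replaced with that of TLR7, each left unstimulated or given the TLR9 agonist CpG DNA at 10 µg/ml. The second set, from male mice that all lacked Tlr9, held Tlr779 B cells, in which TLR7 carries the TIR domain of TLR9, left unstimulated or given the TLR7 agonist CL097 at 5 µg/ml. The sample titles give Tlr9het as heterozygous for Tlr9, whereas the treatment protocol names the matching mice Tlr9-/-. Control Tlr7WT libraries were not analysed here. Each of the 6 groups had 3 libraries from 3 mice per genotype, 18 libraries in all.

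Splicing joins exons in a large RNA-protein machine built from snRNPs. A ring of Sm proteins is loaded onto most of the small nuclear RNAs by the SMN complex after methylation by PRMT5. U1 then marks the 5′ splice site, and U2, through SF3A and SF3B, marks the branch point. SR proteins mostly promote exon use and hnRNP proteins often oppose it, and in lupus the Sm and RNP proteins are known as targets of autoantibodies.

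Values are log2 CPM as deposited, made from read counts by the authors with quantile normalization, so sequencing depth is unknown and the precision rests on the 3 libraries per group. Library 3 of unstimulated Tlr997 stood apart, with correlations of 0.944 and 0.955 to the others of its group, against at least 0.976 within the other groups. All 8 B cell markers were present, and their summed level was 5994 to 7963 CPM in unstimulated libraries and 1992 to 3833 CPM in stimulated ones. With CpG it was 1992 to 2126 CPM in Tlr9het and 3083 to 3833 CPM in Tlr997, which did not overlap. With CL097 in Tlr779 it was 2649 to 3471 CPM. The summed T cell markers ranged from 3.26 to 29.7 CPM, macrophage markers from 92.9 to 439 CPM and erythroid markers from 12.3 to 474 CPM, and the globin genes Hba-a1, Hba-a2 and Hbb-b1 were below 0 log2 CPM throughout. Summed neutrophil markers ranged from 19.0 to 173 CPM, plasma cell markers from 94.7 to 219 CPM and NK cell markers from 3.97 to 15.6 CPM. Those of plasmacytoid dendritic cells were 23.1 to 42.3 CPM in unstimulated and 41.3 to 99.3 CPM in stimulated libraries. The part of these shifts in the results below was not tested, and fewer cells of a type and less RNA per cell cannot be told apart in bulk libraries.

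Of the 49 genes, 47 were above 0 log2 CPM in all 18 libraries and entered every test. Snrpn, a paralog of Snrpb best known from neurons, was listed at -5.05 log2 CPM, the most frequent value of the files, in every library. Srsf12 lay between -5.21 and 0.34 log2 CPM and was not tested. Per kilobase of annotated exon, the most abundant member in unstimulated Tlr9het cells was Hnrnpa2b1, which encodes an RNA-binding protein close in sequence to hnRNP A1, at 396 ± 12.6 CPM per kb (SD, n = 3). Hnrnpa1 itself was at 2.15 ± 0.181 CPM per kb (SD, n = 3). Of all 75-base stretches of its longest coding transcript, 44.4% also occurred in transcripts of 14 other genes, 13 of them pseudogenes, so its counts are uncertain. The same share was 0% for Hnrnpa2b1, 63.8% for Srsf4, 61.7% for Hnrnpf, 43.8% for Sf3b4, 30.7% for Hnrnpk and 27.9% for Hnrnpa3. For Hnrnpm it was 28.4% and for Hnrnpab 25.9%, each shared with 1 other gene.

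CpG raised most of the set in Tlr9het B cells. After CpG 33 of the 47 tested genes were called higher and 3 lower, a call being a limma adjusted p under 0.05 together with a log2 fold change beyond 0.5 in size. Among all 11494 genes tested, 29.7% were called higher and 28.2% lower. The median log2 fold change was 0.77 over the members and 0.04 over all genes tested. In Tlr997 cells 28 members were higher and 2 lower with CpG, against 29.6% and 26% of all genes, with a median of 0.64 against 0.07. With CL097 in Tlr779 cells 21 were higher and 1 lower, against 22.7% and 23.6% of 11082 genes, with a median of 0.44 against -0.02. In all 3 responses 19 members were called higher, and 1, Hnrnpul2, was called lower, an overlap that was not counted over all genes.

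**Figure D1:**
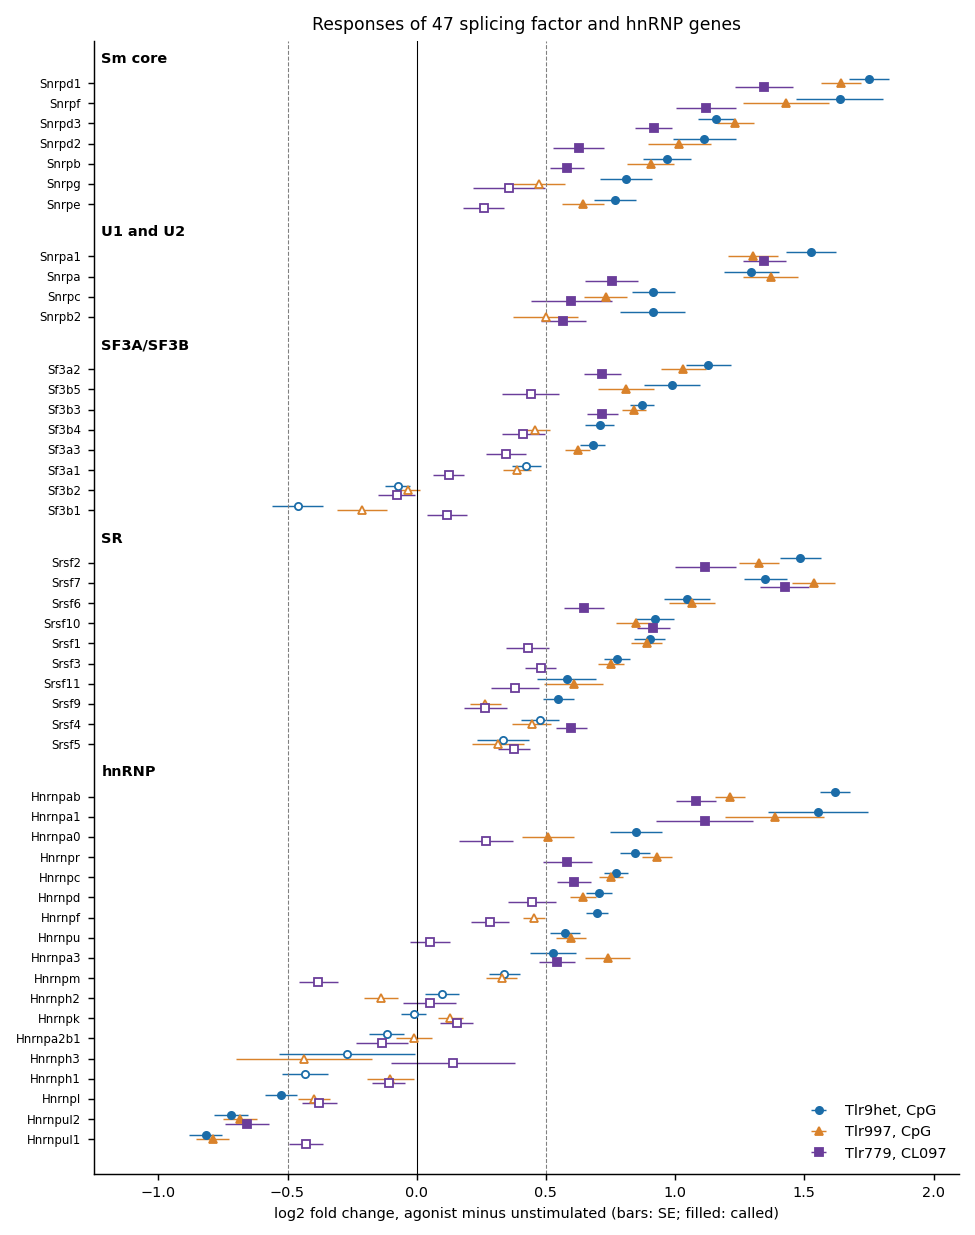
Log2 fold change (agonist minus unstimulated, x axis) of the 47 tested genes, grouped by family and ordered by the Tlr9het response, with bars for the SE of limma and filled symbols for called changes; dashed lines mark ±0.5. Sm core and U1/U2 genes lie to the right of 0 in all 3 responses, while hnRNP genes spread from -0.82 to 1.62 in Tlr9het.

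The Sm core proteins form the ring shared by most of the spliceosomal snRNPs. All 7 tested Sm core genes were called higher with CpG in Tlr9het, 6 in Tlr997 and 5 in Tlr779 with CL097, with median log2 fold changes of 1.11, 1.02 and 0.63. Among all genes tested, 29.7%, 29.6% and 22.7% were called higher in these responses. Snrpd1 changed most, from 5.94, 5.93 and 5.70 log2 CPM to 7.56, 7.67 and 7.60 in the 3 Tlr9het libraries of each group. The stimulated libraries lay above every unstimulated one, a difference of 1.75 ± 0.08 on the log2 scale (± is the SE here and below, limma adjusted p = 2.23e-10), or 3.37-fold. In Tlr997 its log2 fold change was 1.64 ± 0.08 and in Tlr779 it was 1.34 ± 0.11. Snrpb, which encodes the SmB protein, rose by 0.97 ± 0.09, 0.91 ± 0.09 and 0.58 ± 0.07 in the same order. Snrpd3 rose by 1.16, 1.23 and 0.92, Snrpd2 by 1.11, 1.02 and 0.63, and Snrpf by 1.64, 1.43 and 1.12 on the log2 scale. For Snrpf, 85.4% of the 75-base stretches of its transcript also occurred in other genes. Snrpe was called with CpG alone, at 0.77 and 0.64, and had 0.26 ± 0.08 with CL097. Snrpg was called in Tlr9het at 0.81, with values of 0.47 ± 0.10 in Tlr997 and 0.36 ± 0.14 in Tlr779 that were not called. In Tlr997 it passed when unstimulated library 1 or 2 or CpG library 1 was left out, at 0.51, 0.53 and 0.52.

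U1 and U2 snRNPs add their own proteins to the ring. Snrpa, a U1 protein that binds a stem-loop of U1 RNA, was at 5.16, 5.13 and 5.47 log2 CPM in unstimulated Tlr9het and at 6.48, 6.54 and 6.63 with CpG. The groups did not overlap in any of the 3 responses, with log2 fold changes of 1.30 ± 0.11, 1.37 ± 0.11 and 0.75 ± 0.10. Snrpa1, of the U2 snRNP, rose by 1.52 ± 0.10, 1.30 ± 0.10 and 1.35 ± 0.08. Snrpc, which helps U1 hold the 5′ splice site, rose by 0.92, 0.73 and 0.60. Without unstimulated Tlr779 library 1 the CL097 value of Snrpc was 0.42 and was not called, and with no filter on low values its adjusted p was 0.0917. Snrpb2, the U2B″ protein, rose in Tlr9het by 0.91 ± 0.13 and in Tlr779 by 0.57 ± 0.09, and had 0.50 ± 0.13 in Tlr997, just under the fold threshold. Without the unstimulated Tlr997 library that stood apart, that value was 0.67 and was called, and it also passed at 0.51 and 0.50 without CpG library 1 or 2. The Tlr779 call of Snrpb2 was lost without CL097 library 2, at 0.50.

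SF3A and SF3B bind U2 snRNP to the branch point. Of the 8 genes 5 were called higher in Tlr9het, 4 in Tlr997 and 2 in Tlr779, and none was called lower. Of all genes 29.7%, 29.6% and 22.7% were called higher in these responses, so the share in Tlr779 was near that of all genes. Sf3a2 rose by 1.13 ± 0.09, 1.03 ± 0.09 and 0.72 ± 0.07, and Sf3b3 by 0.87, 0.84 and 0.72. Sf3b1, the subunit that holds the branch point adenosine, went the other way with CpG in Tlr9het but stayed under the fold threshold, with -0.46 ± 0.10 (limma adjusted p = 0.000846). It had -0.21 ± 0.10 in Tlr997 and 0.12 ± 0.08 in Tlr779. Sf3b2 was the quietest of all members, with no response beyond 0.08 in either direction.

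All 10 tested SR genes had positive log2 fold changes in each response, of which 8 were called higher in Tlr9het, 7 in Tlr997 and 5 in Tlr779. The shares of all genes called higher were 29.7%, 29.6% and 22.7% in these responses. Srsf7, an SR protein with a zinc knuckle, was at 7.69, 7.65 and 7.69 log2 CPM in unstimulated Tlr9het and at 9.01, 9.06 and 9.02 with CpG. In Tlr779 it went from 7.16, 7.12 and 7.24 to 8.78, 8.60 and 8.42. The 2 states did not overlap in any genotype, and the log2 fold changes were 1.35 ± 0.08, 1.54 ± 0.08 and 1.42 ± 0.10. Srsf2, an SR protein needed for exon inclusion and mutated in some leukaemias, rose by 1.48 ± 0.08, 1.33 ± 0.08 and 1.12 ± 0.12, with 32.9% of its transcript stretches shared with other genes. Srsf6 rose by 1.05, 1.06 and 0.65, and Srsf10 by 0.92, 0.85 and 0.92. Srsf1, the founding SR protein, and Srsf3, the smallest one, were called with CpG, at 0.90 and 0.89 and at 0.77 and 0.75, and had 0.43 ± 0.08 and 0.48 ± 0.06 with CL097. Leaving out unstimulated Tlr779 library 3 brought Srsf3 to 0.51 and over the threshold. Srsf4 passed with CL097 at 0.60 and had 0.48 and 0.44 with CpG; the Tlr9het value passed at 0.52 without unstimulated library 3 and at 0.51 without CpG library 2. Srsf11 rose by 0.58 and 0.61 with CpG, and its Tlr997 call was lost without unstimulated library 1, at 0.48.

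Of the 18 hnRNP genes 9 were called higher and 3 lower in Tlr9het, where 29.7% and 28.2% of all genes were. In Tlr997 the counts were 8 and 2, against 29.6% and 26%. In Tlr779 they were 5 and 1, against 22.7% and 23.6%, so that the share called higher there was near that of all genes. Hnrnpab, an RNA-binding protein of the A/B type, was at 8.79, 8.85 and 8.83 log2 CPM unstimulated and 10.44, 10.53 and 10.35 with CpG in Tlr9het, a rise of 1.62 ± 0.06. The rises in Tlr997 and Tlr779 were 1.21 ± 0.06 and 1.08 ± 0.08. Hnrnpa1, with the uncertain counts described above, rose by 1.55 ± 0.19, 1.39 ± 0.19 and 1.12 ± 0.19. Hnrnpr rose by 0.84, 0.93 and 0.58 and Hnrnpc, which binds uridine tracts, by 0.77, 0.75 and 0.61. The CL097 call of Hnrnpr was lost without CL097 library 2, at 0.50. Hnrnpa3 rose by 0.53, 0.74 and 0.54, and its Tlr9het call was lost at 0.49, 0.48 and 0.49 without unstimulated library 3, CpG library 2 and CpG library 3. Hnrnpa0 rose by 0.85 in Tlr9het and 0.51 in Tlr997, where leaving out unstimulated library 3 or CpG library 3 gave 0.38 and 0.45, both not called.

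The hnRNP genes called lower with CpG in Tlr9het were Hnrnpul1, Hnrnpul2 and Hnrnpl. Hnrnpul1, related to hnRNP U, went from 8.35, 8.29 and 8.38 to 7.61, 7.52 and 7.43 log2 CPM. Every stimulated library was below every unstimulated one, with log2 fold changes of -0.82 ± 0.06 in Tlr9het and -0.79 ± 0.06 in Tlr997, and -0.43 ± 0.07 in Tlr779, which was under the fold threshold. Hnrnpul2 had -0.72 ± 0.07, -0.68 ± 0.07 and -0.66 ± 0.08, called in each. Hnrnpl, which with Hnrpll acts on the variable exons of Ptprc (CD45), had -0.53 ± 0.06, -0.40 ± 0.06 and -0.38 ± 0.07, and was called in Tlr9het but in neither of the others. That call was lost without unstimulated library 3, at -0.49. Hnrpll, filed under an older symbol and so outside the rule, had 0.12 ± 0.37, 0.19 ± 0.37 and 0.61 ± 0.31, none called. Hnrnpk, a cytidine-binding hnRNP, Hnrnpa2b1 and Hnrnph2 had no response beyond 0.15, 0.13 and 0.14 in either direction.

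**Figure D2:**
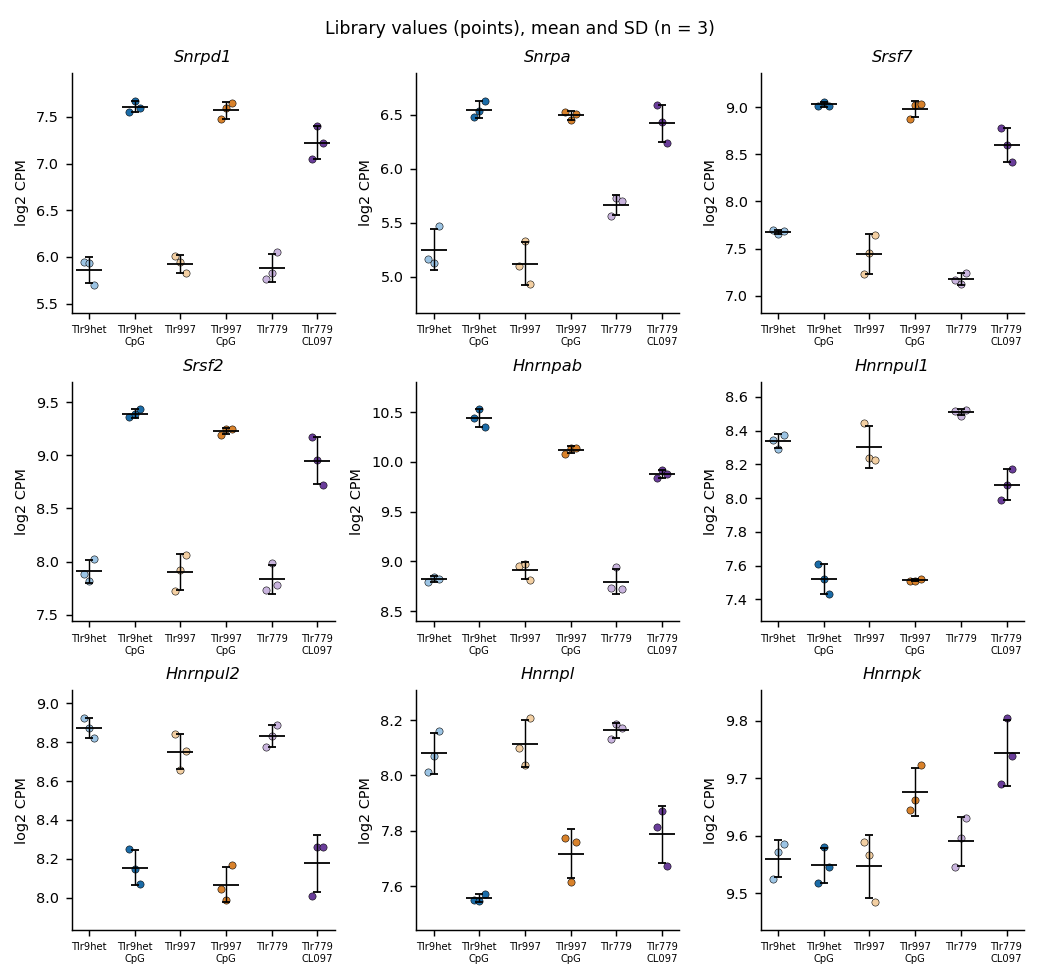
Log2 CPM (y axis) of 9 genes in each of the 18 libraries by group, with points for libraries and bars for the mean and SD (n = 3). Stimulated libraries lie above unstimulated ones for Snrpd1, Snrpa, Srsf7, Srsf2 and Hnrnpab and below them for Hnrnpul1, Hnrnpul2 and Hnrnpl, while the Hnrnpk axis spans less than 1 log2 unit.

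Promoter sequence was examined because so many members moved together. Windows from 250 bases before to 50 bases after the RefSeq transcription start (GRCm38.p6) were found for 44 of the 49 genes, 61 windows in all, and both strands were searched. The ETS core CGGAAG was in 49.2% of member windows and 16.9% of all 32851 windows. The GC box GGGCGG was in 67.2% and 35.7%, the letters TCGCGA in 9.84% and 2.50%, and TATAAA in 11.5% and 13.6%. The E-box CACGTG was in 11.5% and 7.15%, in 6 member genes. The 32851 windows were not limited to genes expressed in these B cells. No share was taken for the genes tested, so these differences cannot be read as particular to the members. The E-box windows are shown because they fall in genes that were called higher with CpG and in genes that were not, with the motif in capitals, on the strand of each gene:
Snrpa, chr7:27196327-27196356, minus strand: cctttcccatccCACGTGatagaactcgca
Snrpa, chr7:27196286-27196315, minus strand: gctcttgaaggtCACGTGatactggcggaa
Hnrnpd, chr5:99978953-99978982, minus strand: gcgctccggagcCACGTGaccgggacgcgc
Hnrnpf, chr6:117907713-117907742, plus strand: cgagcgggcgctCACGTGgcccgaggcgcc
Hnrnpa3, chr2:75659229-75659258, plus strand: cggatagcacatCACGTGgtgactggcccc
Hnrnpm, chr17:33685428-33685457, minus strand: gtcgttcggggtCACGTGagcgcgcaggcg
Hnrnph2, chrX:134601182-134601211, plus strand: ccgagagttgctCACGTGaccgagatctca

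Of these 6 genes, Snrpa, Hnrnpd, Hnrnpf and Hnrnpa3 were called higher with CpG in Tlr9het. Hnrnpm, with 0.34 ± 0.06, was under the fold threshold, and Hnrnph2 had 0.10 ± 0.07. The motif began 73 and 32 bases before the start in the window of Snrpa shown, with another in its second window, and at bases 14 and 16 after it in Hnrnpm and Hnrnph2. The ETS core was in 16 of the 29 genes with a window that were called higher with CpG in Tlr9het (55.2%) and in 8 of the 13 tested genes with a window that were not (61.5%). Of the 12 members that rose over 2-fold with CpG in Tlr9het, Snrpa1, Srsf7, Snrpa, Sf3a2 and Snrpd2 held it. It was not found for Snrpd1, Snrpf, Hnrnpab, Hnrnpa1, Srsf2, Snrpd3 and Srsf6, though some members had no window. Among the quiet members, Sf3b2, Hnrnpa2b1 and Hnrnpk held it and Hnrnph2 did not. Windows that held it are shown from members with large increases and from quiet ones:
Snrpa1, chr7:66060215-66060244, plus strand: gccccttacctgCGGAAGcccaagttagac
Srsf7, chr17:80207505-80207534, minus strand: gcaggagaccgcCGGAAGgccacaggttta
Sf3b2, chr19:5295450-5295479, minus strand: ggattacgcaacCGGAAGtttctggaagta
Hnrnpk, chr13:58402238-58402267, minus strand: gggagtcgccggCGGAAGgcggggttctcg
A match of letters is a description of the window and was not tested against the responses.

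The TIR domain of TLR9 was compared with that of TLR7 through Tlr9het and Tlr997. Without stimulation no member was called in either direction, against 0.0174% higher and 0% lower of all genes, and 13 members (27.7%) had an unadjusted limma p under 0.05, against 10.8% of all genes. With the 6 compared libraries alone, that count was 8 members, and 643 of 10979 genes. It ranged from 7, without unstimulated Tlr9het library 1, to 16, without unstimulated Tlr997 library 3. With CpG again none was called, against 1.25% higher and 1.47% lower, with 12 (25.5%) at an unadjusted p under 0.05 against 19.0% of all genes, and a median difference of -0.06. The difference of the CpG responses (Tlr997 minus Tlr9het) called none, against 0.687% and 0.853%, with 9 (19.1%) at an unadjusted p under 0.05 against 16.0%. All of the 28 members called higher with CpG in Tlr997 were among the 33 of Tlr9het, or 84.8% of the latter. The same overlap was not counted over all genes, so it cannot be read as particular to the members.

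Hnrnpab had the smallest p of the members in the genotype comparison with CpG and in the difference of CpG responses. With CpG it was at 10.08, 10.14 and 10.14 log2 CPM in Tlr997, below the 10.35 to 10.53 of Tlr9het. The difference was -0.32 ± 0.06 (95% interval -0.44 to -0.19, limma adjusted p = 0.00615), under the fold threshold. Its CpG response was smaller in Tlr997 by -0.41 ± 0.08 (95% interval -0.58 to -0.23, limma adjusted p = 0.0241), and over 20 alternatives that adjusted p ranged from 0.00918 to 0.0823. It was under 0.05 in 13 of them, and over it with no filter on low values, with no variance trend, and without Tlr9het unstimulated library 1 or 2, Tlr9het CpG library 1 or 2 or Tlr997 CpG library 1. Fold thresholds of 0 and 1 were among the 13 and could not change the adjusted p. Hnrnpf, which binds G-rich RNA, and Sf3b4 were also lower in Tlr997 with CpG, by -0.19 ± 0.04 (limma adjusted p = 0.0192) and -0.24 ± 0.06 (limma adjusted p = 0.0273), and 6 of 21 alternatives for each ended above 0.05. Those fold thresholds were among the 21 as well. The unstimulated values with the smallest p were Hnrnpm at -0.20 ± 0.06, Snrpe at 0.25 ± 0.08 and Snrpg at 0.31 ± 0.10, with limma adjusted p of 0.339, 0.345 and 0.345. Snrpb2 had values of the same or larger size with larger SEs, at 0.37 ± 0.13 unstimulated (limma adjusted p = 0.37) and -0.41 ± 0.18 for the difference of CpG responses (limma adjusted p = 0.269). For Snrpd1 the interval of the difference between CpG responses ran from -0.35 to 0.13, and for Srsf7 from -0.07 to 0.44.

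**Figure D3:**
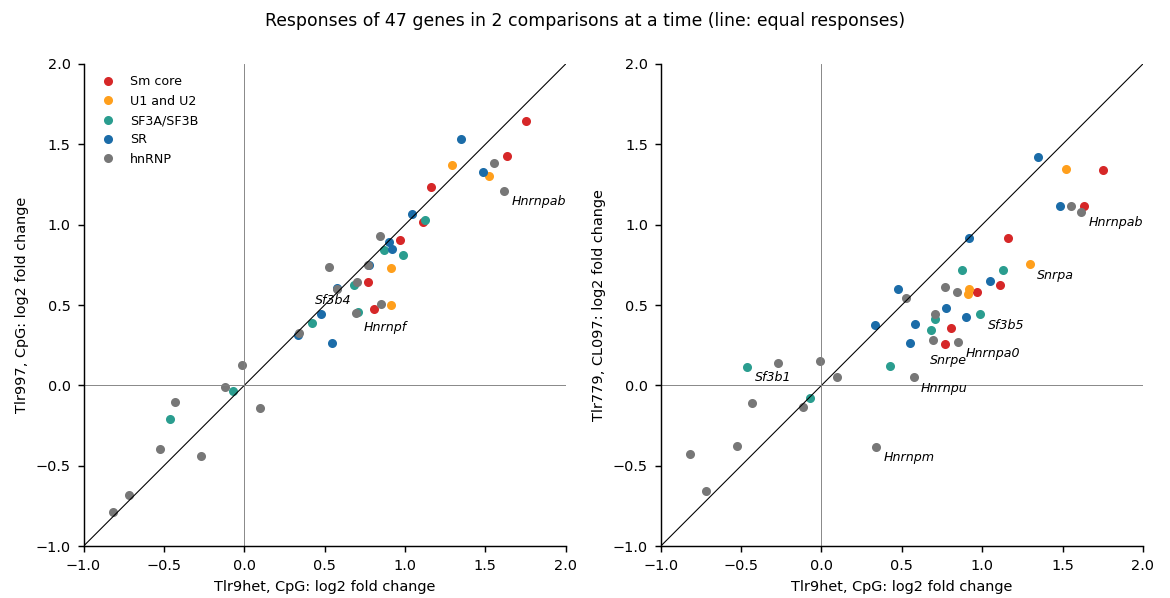
Log2 fold change of each of the 47 tested genes with CpG in Tlr9het (x axis) against the CpG response of Tlr997 (left, y axis) and the CL097 response of Tlr779 (right, y axis), coloured by family. Points in the left panel lie near the line of equal responses, with Hnrnpab below it, and in the right panel Hnrnpm lies at 0.34 and -0.38.

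The CL097 response of Tlr779 was set against the CpG response of Tlr9het in a further test chosen after the data were seen. Receptor, agonist, sex and the gene that the mice lacked (Tlr7 or Tlr9) all differ between these responses and cannot be told apart. The CL097 response was lower for 7 members and higher for 1, against 9.33% lower and 10.9% higher of 11676 genes, with a median difference of -0.29 over the members and -0.05 over all genes. The count of lower members ranged from 3 to 9 when each library was left out in turn. It was 4 without unstimulated Tlr9het library 1, 3 without unstimulated Tlr779 library 2 and 4 without Tlr779 CL097 library 3.

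Hnrnpm, an hnRNP that binds GU-rich RNA, showed the largest difference. It was at 8.37, 8.28 and 8.24 log2 CPM in unstimulated Tlr9het and 8.65, 8.67 and 8.57 with CpG. In Tlr779 it was at 8.23, 8.34 and 8.34 unstimulated and 7.80, 8.01 and 7.96 with CL097. The stimulated libraries were thus above the unstimulated ones in the first case and below them in the second, and the difference was -0.72 ± 0.09 (limma adjusted p = 3.37e-05). Neither response of Hnrnpm was called by itself, at 0.34 ± 0.06 with CpG and -0.38 ± 0.08 with CL097. Hnrnpu, a nuclear scaffold hnRNP, rose with CpG by 0.57 in Tlr9het and 0.60 in Tlr997 and had 0.05 ± 0.08 with CL097, a difference of -0.52 ± 0.09 (limma adjusted p = 0.000546). Sf3b1 differed by 0.58 ± 0.13 in the other direction (limma adjusted p = 0.0038), and neither of its responses was called by itself. The differences of Hnrnpm and Sf3b1 passed in all 24 alternatives other than those of the fold threshold. Hnrnpa0 differed by -0.58, Sf3b5 by -0.55, Snrpa and Hnrnpab by -0.54 and Snrpe by -0.51. Those of Hnrnpu, Hnrnpa0, Sf3b5, Snrpa, Hnrnpab and Snrpe were lost in 3, 1, 2, 4, 2 and 6 of 24, each time by a left-out library that brought the value to between -0.45 and -0.50.

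**Figure D4:**
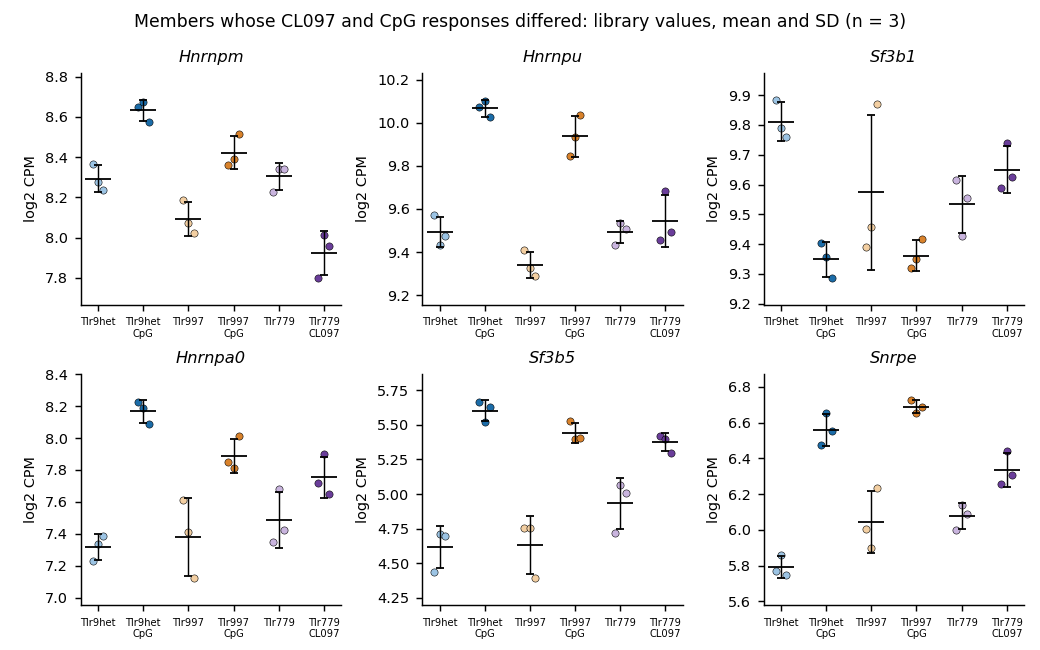
Log2 CPM (y axis) of 6 genes whose CL097 and CpG responses differed, in each of the 18 libraries by group, with the mean and SD (n = 3). Hnrnpm is higher with CpG and lower with CL097, with neither change called, and Hnrnpu overlaps between unstimulated and CL097 libraries of Tlr779.

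Other genes of the splicing machinery gave the setting of these changes. Of 107 such genes, 104 were tested, and 51 rose and 13 fell in CpG-treated Tlr9het cells, 45 and 11 in Tlr997 and 40 and 7 with CL097 in Tlr779. The shares of all genes called higher and lower were 29.7% and 28.2%, 29.6% and 26%, and 22.7% and 23.6%. Genes of snRNP assembly were called higher or not called, with 12 of 16 called higher and none lower in Tlr9het, 11 and none in Tlr997, and 12 and none in Tlr779. Gemin6, of the SMN complex, went from 3.01, 3.03 and 2.95 to 4.96, 5.20 and 4.90 log2 CPM in Tlr9het, a rise of 2.02 ± 0.14. Gemin5, which recognises small nuclear RNAs, rose by 1.91, 1.91 and 1.57, and Gemin4 by 1.72, 1.55 and 1.47. Prmt5, which methylates Sm proteins, rose by 1.52 ± 0.08, 1.62 ± 0.08 and 0.97 ± 0.07, and Smn1 by 1.41, 1.44 and 0.90. Nhp2l1, a U4 snRNP protein, rose by 1.89, 1.60 and 1.28. Snrnp70, the U1-70K autoantigen, rose by 0.80 ± 0.09, 0.86 ± 0.09 and 0.78 ± 0.07.

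Another class held SR protein kinases, import factors and also Son, Srrm1, Srrm2, Acin1 and Rnps1. Of its 14 tested genes, 3 were higher and 5 lower in Tlr9het, 3 and 4 in Tlr997 and 3 and 1 in Tlr779. Rnps1 was among those higher in each response, and Srrm1 among those higher with CL097. Of all genes 29.7% and 28.2% were called in Tlr9het, 29.6% and 26% in Tlr997 and 22.7% and 23.6% in Tlr779. Clk1, an SR protein kinase, was at 8.26, 8.08 and 8.09 log2 CPM unstimulated and 6.32, 6.16 and 6.11 with CpG in Tlr9het, a change of -1.95 ± 0.11. It changed by -1.49 ± 0.11 in Tlr997 and had -0.46 ± 0.11 in Tlr779, under the fold threshold. Srpk2 had -1.38, -1.58 and -0.93, called in each. Rbm5, a splicing regulator, had -1.52, -1.20 and -0.76, and Snrnp25, of the minor spliceosome, -1.71, -1.32 and -1.60. U2af1, which reads the 3′ splice site, rose by 1.40, 1.30 and 1.00, and U2af2 by 0.71 and 0.71 with CpG, with 0.48 ± 0.06 for CL097. Ptbp1, the polypyrimidine tract binding protein, had 0.31, 0.30 and -0.04, none called.

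**Figure D5:**
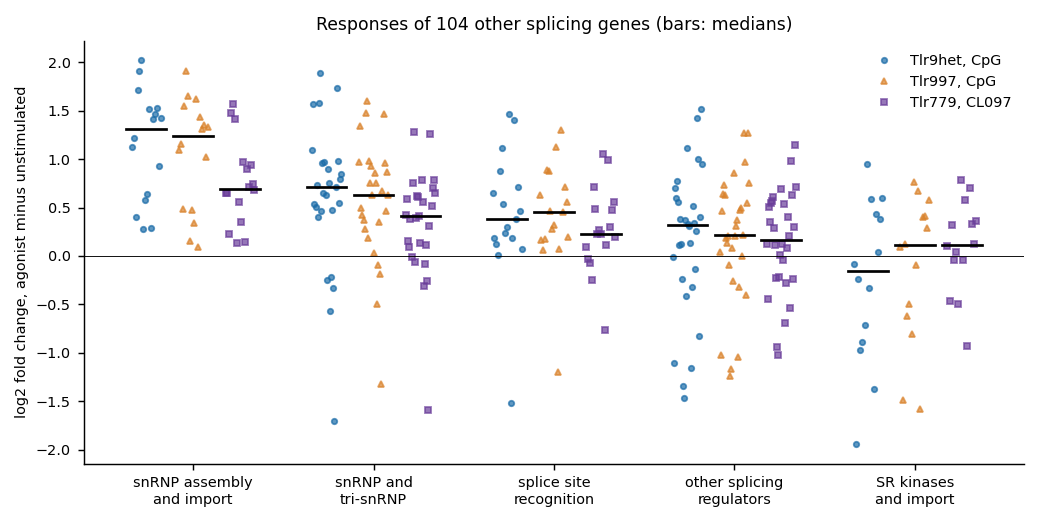
Log2 fold change (y axis) of 104 other splicing genes by class (x axis) in the 3 responses, with a point for each gene and bars for class medians. The snRNP assembly medians are 1.32, 1.23 and 0.70. The SR kinase and import class, which also holds Son, Srrm1, Srrm2, Acin1 and Rnps1, spans -1.95 to 0.95 in Tlr9het.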

How the data were processed

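B cell libraries were made with a stranded poly(A) kit. Per the labels and methods, reads were trimmed (Trim Galore 0.6.5), aligned to mm10 (STAR 2.6.1a), counted with featureCounts (Subread 2.0.1), and quantile normalized with voom; whether counting used strand is not given in the sources used here. The deposited values are log2 CPM, 1 file per library, with similar totals (991992 to 1004412 CPM) and highest values (13.76 to 13.92 log2 CPM) in all 18 libraries. Among 6614 genes low in the Tlr7-/- set, 6306 took 1 value per replicate number in all libraries of that number, and for 822 of these the values differed between numbers. Whether an adjustment by replicate number was made before deposit is not given in the sources used here, and its effect on the p-values was not tested.

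Genes above 0 log2 CPM in at least 3 fitted libraries were tested with limma 3.58.1 (R 4.3.3, moderated variance with a trend, Benjamini-Hochberg over all genes tested). The 12 Tlr7-/- libraries and the 6 Tlr779 libraries were fitted apart, and all 18 for the difference between CL097 and CpG responses. Fits were tested on simulated data. Libraries of 1 replicate number had correlations of deviations of 0.287 to 0.513 within Tlr9het, 0.252 to 0.485 within Tlr779 and 0.025 to 0.373 within Tlr997. Between Tlr9het and Tlr997, which come from different mice, the same correlations were -0.038 to 0.324 with CpG and -0.107 to 0.186 unstimulated. The ranges overlap, so these values do not establish which libraries share a mouse. P-values measure the spread between these samples, which the labels tie to 3 mice per genotype without naming the mouse of each library.

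Named genes were up to 10 called members with the largest change in each direction and response, called members of genotype comparisons or else the 3 with the smallest p, the Sm and U1 genes and other fixed members, quiet members, and the largest called changes of other splicing genes. Members and lists were chosen with earlier results of these data known. Promoter windows were taken from RefSeq (GRCm38.p6), and exon lengths and transcript stretches of 75 bases from GENCODE M21. Alternatives were log2(CPM + 1), no filter, a mean over 2 log2 CPM, a replicate block, no variance trend, fold thresholds of 0 and 1, libraries shifted to equal medians, the 6 compared libraries alone, and each library left out.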

Additional observations from a re-analysis of the deposited data

Results flagged for a closer look

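Hnrnpab was flagged because its CpG response differed between genotypes by the test of the difference itself, by -0.41 on the log2 scale (Tlr997 minus Tlr9het).

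The following members were flagged because the CL097 response of Tlr779 differed from the CpG response of Tlr9het by the test of the difference, a comparison added after the data were seen. The difference was 0.58 for Sf3b1, -0.72 for Hnrnpm, -0.58 for Hnrnpa0, -0.55 for Sf3b5, -0.54 for Snrpa, -0.54 for Hnrnpab, -0.52 for Hnrnpu and -0.51 for Snrpe. Receptor, agonist, sex and the gene that the mice lacked (Tlr7 or Tlr9) cannot be told apart in it. Groups of 3 libraries were too small for a test of single outlying libraries.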

How the results depend on the processing

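Of 418 alternatives for the counts and medians of members, 400 left the value within 1.5 times the reported count or within 1 SD between libraries, and no result changed direction. The others came from the fold threshold, apart from 3 that left out a library. Some of the 418 could not move a median, such as the replicate block, no variance trend or a left-out library outside the comparison. At a fold threshold of 1, 12 members were higher in each CpG response and 7 with CL097, and 0 were lower in any of these or in either direction for the difference between CL097 and CpG responses. At a threshold of 0, 5 members were lower with CpG in Tlr9het, 32 were higher and 4 lower with CL097, 3 were lower in Tlr997 than Tlr9het with CpG, 1 had a lower CpG response in Tlr997, and for the difference between CL097 and CpG responses 3 were higher and 19 lower. Leaving out each library gave 3 to 9 lower members in that last comparison. The replicate block changed none of the 96 calls of members, and its counts were 33 higher and 3 lower in Tlr9het, 28 and 2 in Tlr997, 21 and 1 in Tlr779. Of 1985 alternatives for single members, 1872 kept their side of the threshold and 113 lost it. A fold threshold of 0 could not lose a call, and left-out libraries outside the comparison left the fold change as it was. The files hold no counts, so depth sets no interval here, and 3 libraries per group limit the precision.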
